A study of Mus musculus with 10 samples.

Results

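miR-126a, miR-144 and miR-451a are the mouse microRNAs (miRNAs) most closely tied to blood vessels and red cells, and 5 of the 1892 miRNAs on the array belong to them: mmu-miR-126a-3p, mmu-miR-126a-5p, mmu-miR-144-3p, mmu-miR-144-5p and mmu-miR-451a, called here without the species prefix. They were taken by name, not by their values. RNA came from 10 male mouse samples that the labels place in liver and call sle liver, handled by a liver cell culture protocol. The 5 samples titled T-C cell have the source Col-/-, and the labels state an exposure of 100000 T-C cells per dish to 0.5 mg TN-CF, lasting 24 hours. The 5 samples titled control cell have the source Control Col. The labels do not say what T-C, TN-CF (TB-CF in the design text), Col or sle mean, and treatment and source cannot be told apart. Whether the samples of a group are separate animals or separate cultures is not stated, so p-values reflect only how far these samples scatter, and that scatter may be technical. Each miRNA had 2 spots per array, and intensity is the linear scanner brightness of a spot.

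miR-126 is made from an intron of Egfl7, a gene for a protein secreted by endothelial cells, and its 3p arm is among the most abundant miRNAs of endothelium, where it favours signalling through the vascular growth factor pathway by lowering the inhibitors Spred1 and Pik3r2. miR-144 and miR-451a come from one primary transcript that the transcription factor GATA1 switches on in red-cell precursors. miR-451a is unusual in that the slicer protein AGO2, and not Dicer, cuts its short hairpin, and it accumulates in mature red cells. In a bulk sample, fewer cells of a type and less RNA per cell cannot be told apart.

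The mature sequences on the array are printed with the seed, bases 2 to 8 from the 5′ end, in capitals, because the seed decides which messages a miRNA pairs with.
miR-126a-3p: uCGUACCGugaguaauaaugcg
miR-126a-5p: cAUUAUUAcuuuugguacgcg
miR-144-3p: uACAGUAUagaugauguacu
miR-144-5p: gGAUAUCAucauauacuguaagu
miR-451a: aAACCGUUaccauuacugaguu
The 5 seeds differ, and 0 of the other miRNAs on the array shared a seed with any of them. The closest other target sequence on the array was 6 edits from miR-126a-3p (miR-126b-3p), 7 from miR-126a-5p and from miR-144-3p, and 8 from miR-144-5p and from miR-451a. The members are therefore not near-identical to any other target sequence printed on the array. By base composition, 45.5% of miR-126a-3p is G or C, against 30.0% of miR-144-3p and 36.4% of miR-451a.

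The hairpins show how the arms lie, with the mature miRNAs of the array in capitals (RefSeq, GRCm38.p6, 5′ to 3′).
Mir126a: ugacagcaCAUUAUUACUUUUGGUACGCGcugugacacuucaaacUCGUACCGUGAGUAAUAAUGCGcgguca
Mir144: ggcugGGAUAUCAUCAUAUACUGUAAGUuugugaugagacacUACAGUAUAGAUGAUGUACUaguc
Mir451a: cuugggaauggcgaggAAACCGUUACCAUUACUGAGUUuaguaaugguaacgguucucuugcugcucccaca
The Mir126a hairpin is at chr2:26591357-26591429 on the plus strand. In GENCODE M21 it lies inside 9 Egfl7 transcripts, in an exon of 1 of them (a retained intron) and outside the exons of the others. The Mir144 hairpin (chr11:78073005-78073070) and the Mir451a hairpin (chr11:78073170-78073241) are both on the plus strand, 99 bases apart and outside protein-coding genes. The array also carried miRNAs of the opposite strand of these loci. miR-126b-5p overlaps miR-126a-3p over 19 bases, miR-126b-3p overlaps miR-126a-5p over 21 bases, and miR-451b comes from the opposite strand of the Mir451a hairpin.

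Only 1 miRNA from each locus gave a signal clear of background. A miRNA counted as detected on an array where its 2 spots averaged more than 3 SD above the mean of the 16 blank spots, a limit that lay between 64.0 and 474 intensity units on the 10 arrays. miR-126a-3p and miR-451a were detected on 10 of 10 arrays. miR-126a-5p and miR-144-3p were each detected on 1 of 10 arrays, in both cases control cell replicate 5, which had the lowest limit of all arrays (64.0) and the most miRNAs detected (1314). miR-144-5p was detected on 0 of 10 arrays, which says that it was not detectable over these blanks, not that it was absent.

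mmu-miR-126a-3p, the guide strand of the endothelial locus, had intensities of 5071, 2819, 2645, 5079 and 2710 on T-C cell replicates 1 to 5 and of 3657, 2833, 3668, 3149 and 3842 on control cell replicates 1 to 5. T-C cell replicates 1 and 4 were above every control cell array, the other 3 T-C cell arrays were below every control cell array, and the ranges overlapped. It ranked between 36 and 52 among the 1892 miRNAs on each of the 10 arrays. It stood 5.58-fold to 38.1-fold over the detection limit in T-C cell arrays and 8.87-fold to 60.0-fold in control cell arrays. The group means were 3665 ± 1288 in T-C cell arrays, against 3430 ± 422 in control cell arrays (n = 5 each, SD).

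mmu-miR-451a, the red-cell miRNA, had intensities of 1426, 1125, 1245, 1143 and 565 on T-C cell replicates 1 to 5 and of 1025, 1029, 872, 429 and 778 on control cell replicates 1 to 5. T-C cell replicates 1 to 4 were above every control cell array, T-C cell replicate 5 was below 4 of them, and control cell replicate 4 was the lowest of all 10 arrays. Its rank among the 1892 miRNAs ran from 82 to 186 in T-C cell arrays and from 129 to 212 in control cell arrays. Its intensity was 2.63-fold to 10.7-fold the detection limit in T-C cell arrays, lowest on replicate 3. In control cell arrays it was 2.53-fold to 12.2-fold the limit. The group means were 1101 ± 323 in T-C cell arrays, against 827 ± 246 in control cell arrays (n = 5 each, SD).

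The 3 other members stayed near the blank spots. mmu-miR-126a-5p, the other arm of the miR-126a hairpin, had intensities from 86.7 to 228 (median 143) in T-C cell arrays and from 68.1 to 190 (median 140) in control cell arrays. mmu-miR-144-3p, which shares a primary transcript with miR-451a, ran from 75.2 to 257 (median 138) in T-C cell arrays and from 64.8 to 190 (median 154) in control cell arrays. mmu-miR-144-5p ran from 68.0 to 259 (median 134) in T-C cell arrays and from 60.8 to 186 (median 155) in control cell arrays. Over the 10 arrays the intensity of these 3 was between 0.800-fold and 1.37-fold the mean of the blank spots of the same array. Their order among themselves changed from array to array and the differences between them were within the spread between arrays, so no order of these 3 was read. The opposite-strand miRNAs were as low: miR-126b-3p was detected on 0, miR-126b-5p on 1 and miR-451b on 1 of the 10 arrays, and their highest intensity was 295.

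**Figure D1:**
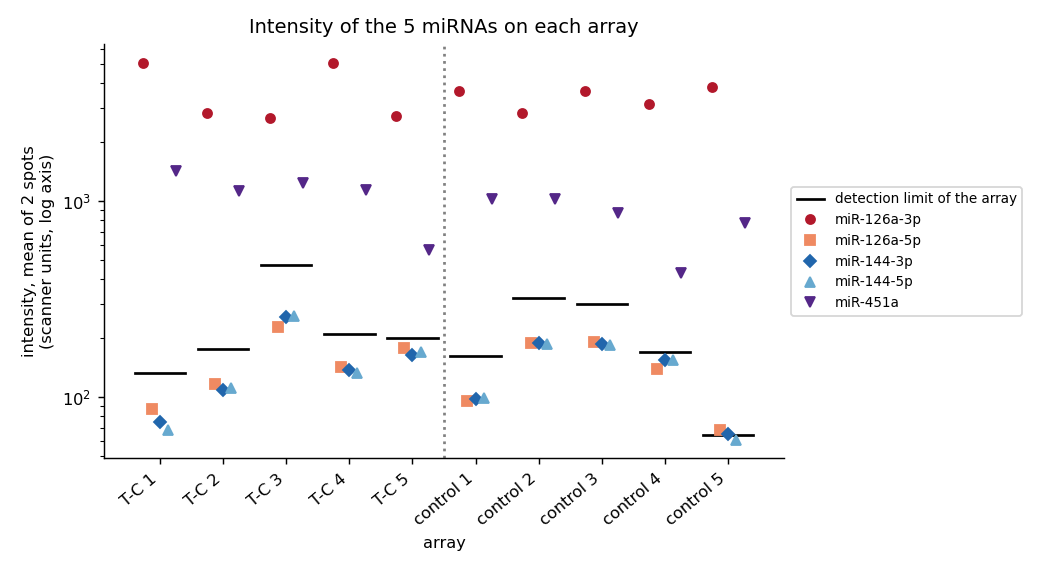
Intensity of the 5 miRNAs (mean of 2 spots, scanner units, log axis) on each of the 5 T-C cell and 5 control cell arrays, with the detection limit of each array as a black bar. miR-126a-3p (2645 to 5079) and miR-451a (429 to 1426) lie above the limit on all 10 arrays, while the 3 other miRNAs lie at or below it on all arrays apart from control cell replicate 5.

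Brightness depends on the probe as well as on the amount of RNA, so the comparison of one miRNA with another describes the array and not molecules. Because miR-126a-5p was above the detection limit on 1 of 10 arrays, no size of the difference between the miR-126a arms was read and no comparison of it between the groups is made. The same holds for the arms of miR-144. miR-451a lay below miR-126a-3p on 10 of 10 arrays. Its log2 level minus that of miR-126a-3p averaged −1.66 ± 0.49 in T-C cell arrays, against −2.02 ± 0.50 in control cell arrays (n = 5 each, SD). The difference between the groups was 0.35 (exact two-sided permutation p = 0.294, Benjamini-Hochberg adjusted p = 0.881 over 3 within-array comparisons, of which the other two involve undetected arms), so the red-cell miRNA did not differ detectably against the endothelial one.

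For the test between groups, intensities were put on the scale of log2(intensity + 50) and normalized between arrays by cyclic loess, and 476 miRNAs detected on at least 5 of 10 arrays were compared with limma. Of these, 37 passed an adjusted p of 0.05, which is 7.77% (1.47% of the tested miRNAs were higher in T-C cell samples, 6.30% were lower), and 87 had an unadjusted p under 0.05. Both detected members were tested, and 0 of 2 passed, also at an unadjusted p of 0.05. Their ranges overlapped between the groups, as did those of most tested miRNAs, of which 3.78% had groups without overlap. At these shares, 0 of 2 says little about the members.

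The normalized log2 level of miR-126a-3p was 11.95, 11.51, 11.60, 11.90 and 11.59 on T-C cell replicates 1 to 5 and 11.68, 11.58, 11.82, 11.68 and 11.82 on control cell replicates 1 to 5. The arrays of both groups thus fell within the same narrow band, with T-C cell replicates 1 and 4 at its upper end. The means were 11.71 ± 0.20 in T-C cell samples, against 11.72 ± 0.10 in control cell samples (n = 5 each, SD). The log2 difference, T-C cell minus control cell, was −0.01 (SE 0.14, limma adjusted p = 0.987), a ratio of 0.996 with a 95% interval from 0.811 to 1.22. Changes within that interval are not excluded. Its bounds are not a detection limit, because calls rest on the adjusted p, so a change somewhat beyond them could also go uncalled. The pooled within-group SD of miR-126a-3p was 0.16, against a median of 0.29, and 12.0% of the tested miRNAs had a smaller one, while 98.1% of the tested miRNAs had a larger absolute difference between the groups. The sign of this difference turned to positive under several settings, quantile normalization among them (0.10).

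The normalized log2 level of miR-451a was 9.95, 10.44, 10.66, 9.90 and 9.36 on T-C cell replicates 1 to 5 and 10.10, 10.16, 9.80, 8.97 and 9.79 on control cell replicates 1 to 5. T-C cell replicates 2 and 3 were above every control cell array, 4 of 5 T-C cell arrays were above the control cell mean, and T-C cell replicate 5 was below 4 of the 5 control cell arrays. The means were 10.06 ± 0.51 in T-C cell samples, against 9.76 ± 0.47 in control cell samples (n = 5 each, SD). The log2 difference was 0.30 (SE 0.28, limma adjusted p = 0.678), a ratio of 1.23 with a 95% interval from 0.803 to 1.88 that includes no change. miR-451a varied more than most miRNAs between samples of one group: its pooled SD was 0.49, and 81.1% of the tested miRNAs had a smaller one. A larger absolute difference was found in 29.6% of the tested miRNAs. Single arrays moved the size: leaving out T-C cell replicate 2, 3 or 5 gave log2 differences of 0.20, 0.14 and 0.46, and leaving out replicate 4 of the control cell group gave 0.11.

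**Figure D2:**
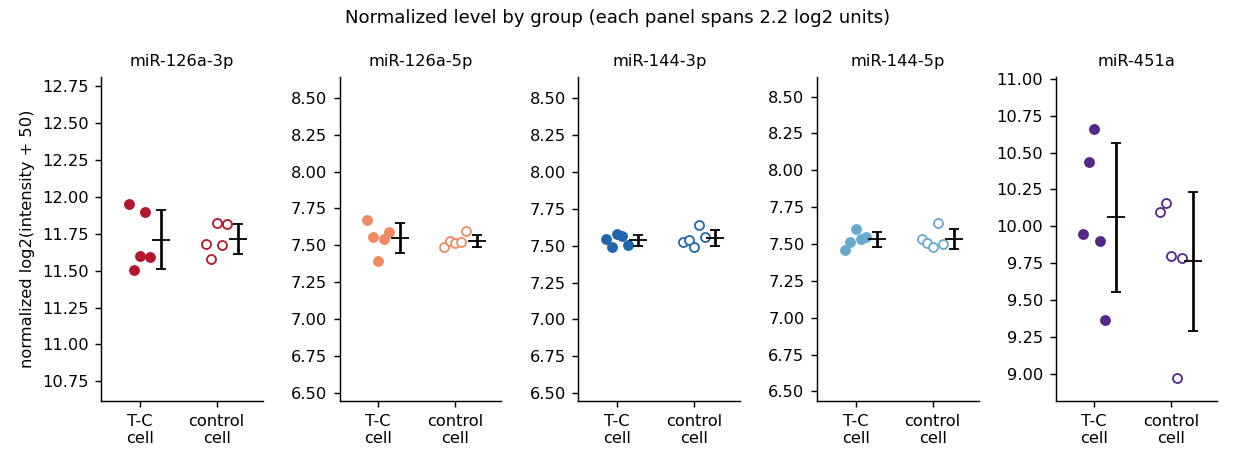
Normalized log2(intensity + 50) of each miRNA on the 5 T-C cell arrays (filled) and 5 control cell arrays (open), with the mean and SD in black and the same span on every vertical axis. The groups overlap in all 5 panels, and miR-451a (10.06 ± 0.51 in T-C cell, 9.76 ± 0.47 in control cell) spreads more widely than miR-126a-3p (11.71 ± 0.20 in T-C cell, 11.72 ± 0.10 in control cell).

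The 3 members under the detection filter had a difference only in a fit over all 1892 miRNAs of the array, in which 1 miRNA (0.0529%) passed and 0 of 5 members did. Their log2 differences were 0.02 (SE 0.05, 95% interval −0.09 to 0.13) for miR-126a-5p, −0.01 (SE 0.04, −0.09 to 0.07) for miR-144-3p and −0.002 (SE 0.04, −0.09 to 0.09) for miR-144-5p, with limma adjusted p of 0.963, 0.976 and 0.995. These values were measured at the level of the blank spots, so the narrow intervals describe background and not the miRNAs. Their width depended on the processing. Without normalization the SE of miR-126a-5p was 0.30 (95% interval −0.50 to 0.69), and after subtraction of the blank mean it was 0.54.

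The call of the detected members did not depend on the settings tried. Over 21 alternatives, which changed the scaling, offset, background, filter, spots, array weights or block or left out 1 array each, neither miR-126a-3p nor miR-451a passed. The log2 difference of miR-126a-3p ran from −0.07 to 0.10 (limma adjusted p from 0.828 to 0.999) and that of miR-451a from 0.11 to 0.46 (limma adjusted p from 0.431 to 0.999), positive in each of the 21.

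**Figure D3:**
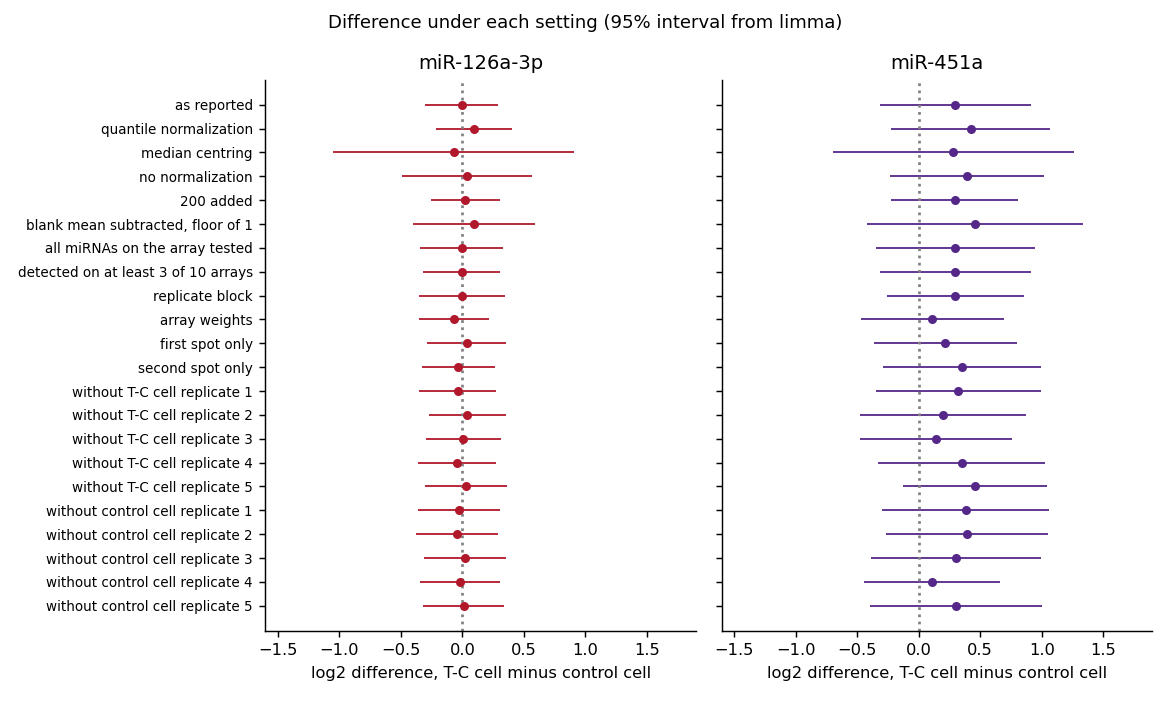
Log2 difference of miR-126a-3p (left) and miR-451a (right), T-C cell minus control cell, under the reported setting and 21 alternatives, with 95% intervals from limma. The intervals cross 0 in every row, the points of miR-126a-3p run from −0.07 to 0.10 and those of miR-451a from 0.11 to 0.46.

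The 2 spots of miR-126a-3p did not give the same brightness. On T-C cell replicate 1 they read 6073 and 4068, and on control cell replicate 1 they read 4470 and 2845. The first spot was the brighter on 10 of 10 arrays, by 1.33-fold to 1.49-fold in T-C cell arrays and by 1.20-fold to 1.57-fold in control cell arrays. This gap was wide for the platform, since its median over arrays, 0.48 on the log2 scale, exceeded that of 99.4% of the tested miRNAs, whose own median was 0.10. The second spot lay in the first column of the array. The other tested miRNAs with a second spot in that column were miR-125a-5p and miR-125b-5p, and in 3 of 3 the spot in the first column was the dimmer one. For miR-126a-5p, whose second spot is in the same column, the first spot was also brighter on 10 of 10 arrays. The part of the spot's place in this gap was not tested. It touched the level and not the comparison: the log2 difference between groups was 0.03 with the first spots alone and −0.03 with the second spots alone. For miR-451a, whose spots were both away from that column, the first spot was between 0.817-fold and 1.14-fold the second, and brighter on 4 of 10 arrays.

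**Figure D4:**
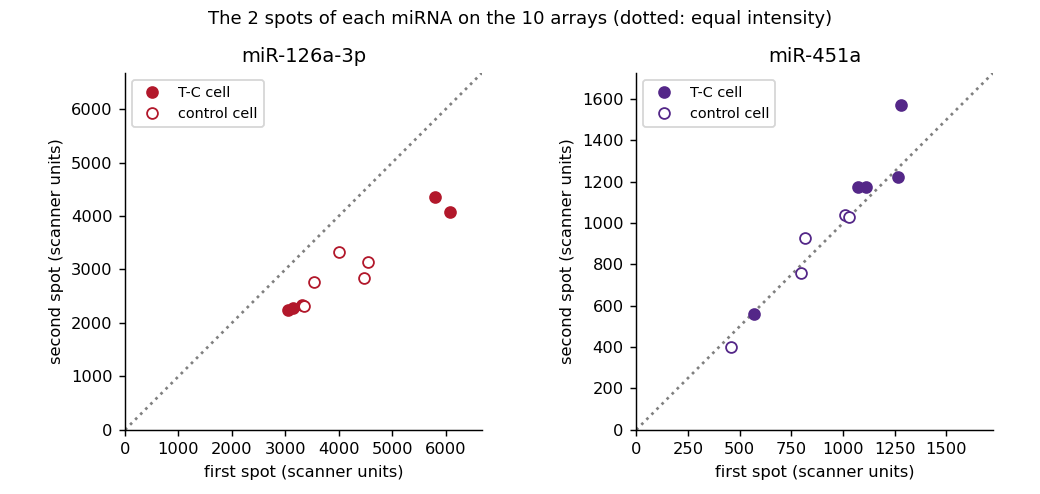
First against second spot of miR-126a-3p (left) and miR-451a (right) on the 5 T-C cell (filled) and 5 control cell (open) arrays, in scanner units, with the line of equal brightness dotted. All 10 points of miR-126a-3p lie below the line, while those of miR-451a lie along it.

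The 2 detected members did not move together over the arrays. Pearson's r of their normalized log2 levels was −0.22 over 10 arrays (permutation p = 0.527) and Spearman's rho −0.32 (permutation p = 0.366). Without T-C cell replicates 1 and 4, the arrays farthest from the median of miR-126a-3p, r was −0.36 over 8 arrays. Among the 475 other tested miRNAs, those whose normalized level over the 10 arrays was most like miR-126a-3p were miR-17-5p (Pearson's r 0.82, Spearman's rho 0.79), miR-106a-5p (0.81 and 0.68) and miR-16-5p (0.81 and 0.89). Those most like miR-451a were miR-425-5p (0.84 and 0.75), miR-423-5p (0.75 and 0.70) and miR-3535 (0.73 and 0.73). These are the highest of 475 values each, over arrays that share their normalization, and are given as a description.

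Of 18 other listed miRNAs enriched in endothelium, 15 were tested, and 0 rose and 0 fell, which is near the 7.77% called among all tested miRNAs and says little about the list. They had 7 positive and 8 negative differences and a median of −0.06, against 0.02 over all 476 tested miRNAs. The smallest p-values belonged to miR-100-5p, miR-10b-5p and miR-218-5p. The intensity of miR-100-5p averaged 885 ± 169 in T-C cell arrays, against 532 ± 95.1 in control cell arrays (n = 5 each, SD), with a normalized log2 difference of 0.58 (SE 0.20, limma adjusted p = 0.110). miR-10b-5p, from a Hox gene cluster, averaged 1314 ± 699 in T-C cell arrays, against 678 ± 181 in control cell arrays (log2 difference 0.70, SE 0.28, limma adjusted p = 0.185). miR-218-5p, made from introns of the Slit genes, averaged 274 ± 85.7 in T-C cell arrays, against 179 ± 47.0 in control cell arrays (log2 difference 0.31, SE 0.13, limma adjusted p = 0.195), and was detected on 3 of 5 T-C cell and 2 of 5 control cell arrays. It was the 1 listed miRNA whose normalized levels did not overlap between groups, a share near the 3.78% of all tested miRNAs. miR-126a-3p, at −0.01, lay inside the range of the list, −0.17 to 0.70. The summed intensity of the listed endothelial miRNAs ran from 34882 to 57981 in T-C cell and from 36300 to 52716 in control cell arrays. The brightest were miR-23a-3p (mean 9620 in T-C cell, 10682 in control cell arrays), miR-23b-3p (9572 and 10635) and miR-24-3p (6662 and 6771). The sum follows these miRNAs most and was not read as vascular content.

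Of 12 listed miRNAs enriched in red-cell precursors, 8 names were on the array and 6 were tested, and 0 rose and 0 fell, which at 7.77% called among all tested miRNAs says nothing about the list. Their differences were positive in 5 and negative in 1, with a median of 0.17, against 0.02 over all tested miRNAs. The 3 with the smallest p-values were miR-20b-5p (log2 difference 0.37, SE 0.23), miR-185-5p (0.27, SE 0.18) and miR-25-3p (0.18, SE 0.14), with limma adjusted p of 0.522, 0.522 and 0.603. miR-16-5p, abundant in red cells and in most other cells, was the negative one at −0.14 (SE 0.13, limma adjusted p = 0.659). miR-92a-3p, which stands in both lists, had 0.15 (SE 0.15, limma adjusted p = 0.697). miR-451a, at 0.30, lay within the range of this list, −0.14 to 0.37. miR-486-3p, from another locus active in red-cell precursors, was matched after its values were seen, and was detected on 0 of 5 T-C cell and 3 of 5 control cell arrays (222 ± 141 in T-C cell arrays, against 195 ± 132 intensity units in control cell arrays, n = 5 each, SD).

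**Figure D5:**
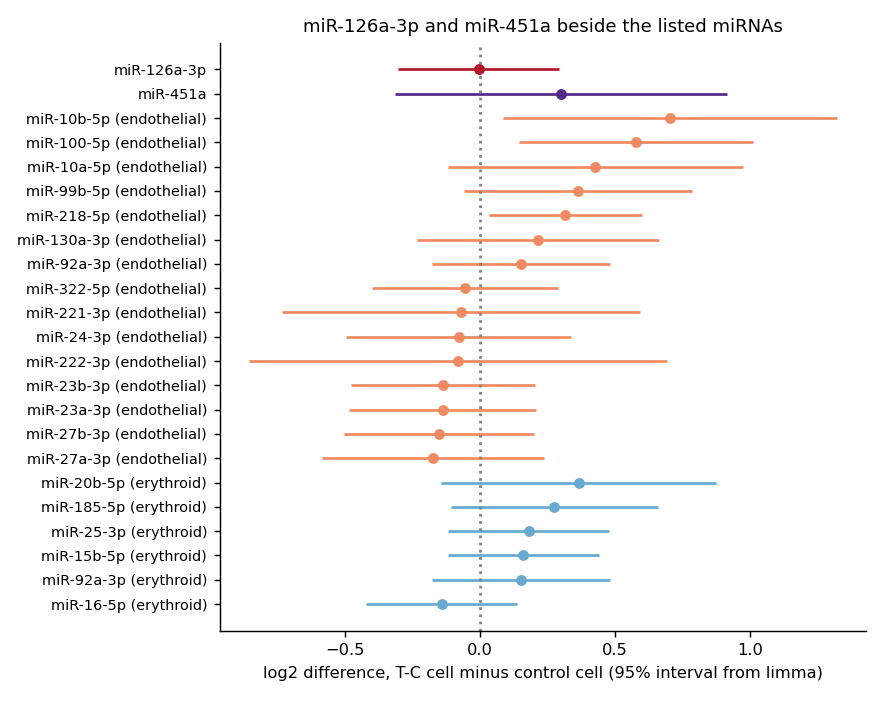
Log2 difference, T-C cell minus control cell, with 95% intervals from limma, for miR-126a-3p and miR-451a and for the tested miRNAs of the endothelial (15) and erythroid (6) lists. miR-126a-3p (−0.01) and miR-451a (0.30) lie among the listed miRNAs, none of which passed.

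White-cell miRNAs are given beside these because blood carries both kinds of cell. Of 5 listed leukocyte miRNAs, 3 were on the array under the listed name and tested, and 1 rose: miR-150-5p, a lymphocyte miRNA (log2 difference 0.86, SE 0.23, limma adjusted p = 0.0433), where 7.77% of all tested miRNAs passed. That call was lost in 13 of 21 alternatives, among them median centring, no normalization, all miRNAs tested and the replicate block, and without T-C cell replicate 1, 4 or 5 or control cell replicate 1, 2, 3 or 5, where the smallest limma adjusted p of the 3 miRNAs lay between 0.0587 and 0.876. The summed intensity of the 3 ran from 1878 to 4926 in T-C cell and from 1505 to 1993 in control cell arrays. miR-223-3p, abundant in neutrophils and platelets, had 0.29 (SE 0.21, limma adjusted p = 0.599), and miR-342-3p 0.38 (SE 0.16, limma adjusted p = 0.195). miR-142-3p and miR-142-5p, matched after their values were seen, had 0.34 and 0.39 (limma adjusted p = 0.463 and 0.368). The difference of miR-451a, 0.30, was in the range of these, and the part of white-cell content in it was not tested.

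For the tissue, miR-122-5p, by far the most abundant miRNA in hepatocytes, was detected on 1 of 5 T-C cell and 0 of 5 control cell arrays, with intensities between 57.8 and 193, near the level of the blank spots, and its other arm miR-122-3p was detected on 1 of 10. The 3 other listed hepatocyte miRNAs, which are also abundant in other tissues, were detected on 10 of 10 arrays and did not pass. The intensity of miR-192-5p averaged 12289 ± 1398 in T-C cell arrays, against 12414 ± 3995 in control cell arrays, that of miR-194-5p 13316 ± 5291 in T-C cell arrays, against 11844 ± 1550 in control cell arrays, and that of miR-148a-3p 2223 ± 1071 in T-C cell arrays, against 2410 ± 721 in control cell arrays (n = 5 each, SD). Their normalized log2 differences were 0.47 (SE 0.53), 0.10 (SE 0.21) and −0.27 (SE 0.34). For miR-192-5p the sign was opposite to that of the intensity means. Its normalized SD was 1.40 in control cell samples, against 0.18 in T-C cell samples, and the cause was not tested. The defining miRNA of hepatocytes was thus near background in samples labelled liver, while other miRNAs of the list were bright. miR-126a-3p and miR-451a were both brighter than miR-122-5p on 10 of 10 arrays. The summed intensity of the 4 stromal miRNAs miR-143-3p, miR-145a-5p, miR-199a-3p and miR-214-3p ran from 29564 to 54887 in T-C cell and from 36610 to 44015 in control cell arrays. That of the 4 epithelial miRNAs of the miR-200 family ran from 14728 to 26424 in T-C cell arrays and from 14692 to 26128 in control cell arrays, and that of 3 muscle miRNAs from 1855 to 2859 in T-C cell arrays and from 2608 to 2998 in control cell arrays. None of the listed stromal, epithelial or muscle miRNAs passed (0 of 4, 0 of 4 and 0 of 3 tested, against 7.77% of all tested miRNAs). The arms of miR-133b were tested but not listed. miR-133b-5p passed as higher in T-C cell samples (log2 difference 3.14, SE 0.83, limma adjusted p = 0.0419), while miR-133b-3p had −0.70 (SE 0.22, limma adjusted p = 0.0813). The groups overlapped for miR-133b-5p, whose normalized SD was 1.23 for T-C cell arrays, against 1.88 for control cell arrays. Its call was lost with all miRNAs tested and when control cell replicate 2 or 3 was left out, where 0 miRNAs passed as higher. In the muscle list miR-133a-3p was called lower with array weights (limma adjusted p = 0.0430), when T-C cell replicate 3 was left out (0.0470) and when replicate 4 of the control cell group was left out (0.0474).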

How the data were processed

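The values are from one-colour arrays run by a service (LC Sciences); per the labels, 1 µg of total RNA was given a poly(A) tail, ligated to a tag and stained with Cy3. The authors deposited the median intensity of each spot, on a linear scale and not scaled between arrays, per the file headers. The within-spot deviation, also an intensity, was not used for any result. The scanner, the image software and any background treatment are not stated. The files were read with Python 3.11.15, 50 was added to each intensity before taking log2, spot pairs were averaged, and cyclic loess removed differences between arrays (limma 3.58.1 in R 4.3.3). limma (eBayes with trend, two-sided) compared 476 miRNAs, with Benjamini-Hochberg adjustment over all of them, and the procedure was tested on simulated data. Permutation tests between the groups used all 252 splits of 5 against 5, and those of the correlations used 100000 random pairings. The miRNAs and lists were chosen with earlier results of these data known, and the lists were matched by exact name. Named beside the members were the 3 listed miRNAs with the smallest p per list and the 3 most alike over the arrays. Positions count from 1 and come from RefSeq sequences on GRCm38.p6, where 4 of the 5 mature members matched by name with the same sequence, and miR-126a-5p was placed by its match to the hairpin.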

Additional observations from a re-analysis of the deposited data

Results flagged for a closer look

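Of 26 groups of 5 arrays checked for an array standing far from the others (intensity and normalized level of each of the 5 miRNAs and 3 within-array differences), 0 held one by Dixon's criterion, where chance gives about 1 in 20.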

How the results depend on the processing

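The alternatives kept miR-451a positive and uncalled, and miR-126a-3p uncalled, throughout. The number of arrays limits every value, and closeness to the blank spots limits most those of the 3 members under the detection filter. The count of miRNAs past the threshold was 37 as reported. It was 14 with median centring and 3 after subtraction of the blank mean (floor of 1). With all miRNAs tested (1892) it was 1, and with detection on at least 3 arrays (641 tested) it was 8. When 1 array was left out it ran from 1 to 44. It was 12 and 2 with T-C cell replicate 1 or 4 left out, and 3, 1, 1 and 3 for control cell replicates 1, 2, 3 and 5. The cause of these changes was not tested. The median of all tested miRNAs was 0.14 without normalization. It was not subtracted, so values from that setting are to be read against it. Those of miR-126a-3p (0.036) and of the endothelial list's median (0.08) were positive but lay below it. No pairing by the replicate numbers of the titles was visible. Same-numbered arrays correlated between −0.20 and 0.26 in their deviations, and 1 of 5 correlated best with its own number. So few correlations cannot exclude a pairing. With the replicate block 22 miRNAs passed, and miR-126a-3p and miR-451a did not (limma adjusted p = 0.989 and 0.721).

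miR-126a-3p turned positive with quantile normalization (0.097), without normalization (0.036), with 200 added (0.024), with blanks subtracted (0.095) and, chosen after seeing the data, with the first spots alone (0.034). Its range when 1 array was left out was −0.046 to 0.040, and that of miR-451a 0.11 to 0.46. miR-126a-5p turned negative with median centring (−0.012). Without normalization miR-144-3p was 0.064 and miR-144-5p 0.069, both below the median of 0.090 over all miRNAs in that fit. miR-144-5p was also 0.00071 with 200 added and 0.014 with array weights. With blanks subtracted, miR-126a-5p was 0.20, miR-144-3p −0.63 and miR-144-5p 0.12. Leaving out 1 array gave miR-126a-5p 0.00051 to 0.055, miR-144-3p −0.028 to 0.015 and miR-144-5p −0.018 to 0.032. The within-array group differences that involve an undetected arm carry no reading. That of the miR-126a arms, −0.06 as computed, was −0.44 with blanks subtracted, ran from −0.31 to 0.16 when 1 array was left out and was 0.037 with the second spots alone, that of the miR-144 arms, −0.0050 as computed, was −0.73 with blanks subtracted and ran from −0.024 to 0.0084, and that of miR-451a and miR-126a-3p from 0.18 to 0.51. None of these values passed. Of the listed endothelial miRNAs, miR-100-5p passed with array weights (limma adjusted p = 0.0344), and the list's median, −0.06 as reported, was 0.06 with quantile normalization, 0.08 without normalization and 0.16 without T-C cell replicate 1.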

Other observations

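Both detected members hold the bases ACC, once in miR-126a-3p (in its seed) and at 2 places in miR-451a. Of the 124 tested miRNAs that hold ACC, 28 fell in T-C cell samples, with a median log2 difference of −0.13. Of the 352 that do not hold it, 2 fell, with a median of 0.05. The split by ACC was not a planned comparison and rests on these same calls, whose number changed with the processing. It is a description and not a test. miR-126a-3p (−0.01) and miR-451a (0.30) did not fall. On the opposite strand of the same loci, miR-126b-3p and miR-451b also hold ACC and were at the level of the blank spots.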
